A study of Mus musculus with 7 samples.

Results

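Of the genes measured in mouse bone-marrow-derived macrophages (BMDMs), 9 transcription factors of the macrophage lineage are described here: Spi1, Cebpa, Cebpb, Cebpd, Maf, Runx1, Klf4, Klf2 and Bach1. They were taken from a list of gene symbols, and all 9 were found among the 48440 genes of the LPS experiment and among the 55352 genes of the AAV experiment. The cells were wild-type BMDMs that had been grown from bone marrow in the presence of M-CSF, the growth factor that drives macrophage formation. In the first experiment they were untreated or exposed to lipopolysaccharide (LPS, a component of the wall of Gram-negative bacteria) at 100 ng per mL, and 1 library was made at each of 0 h, 2 h and 4 h. In the second, 2 samples were transduced for 48 h with AAV-GFP, an adeno-associated virus of serotype 1 that carries green fluorescent protein, and 2 samples with AAV-SHISA3, the same kind of virus carrying the membrane protein SHISA3. Both viral genes stood under the broadly active CAG promoter, and all cells of the second experiment had therefore been exposed to virus. The labels do not tie samples to separate animals or cultures, so p-values measure only the spread between these samples, which may be technical.

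Macrophages arise from bone marrow progenitors under a small set of DNA-binding proteins. PU.1, the product of Spi1, is an ETS factor that opens the enhancers macrophages use, and RUNX1 acts before and beside it during blood cell formation. The C/EBP factors are leucine zipper proteins: C/EBPα drives the commitment of myeloid progenitors, whereas C/EBPβ and C/EBPδ are well known for the acute-phase and inflammatory response. MAF, a large MAF factor, is known for restraining the self-renewal of mature macrophages and for the expression of Il10. KLF2 and KLF4 are zinc finger factors, of which KLF4 takes part in monocyte formation and KLF2 restrains inflammatory genes in myeloid and endothelial cells. BACH1 is a heme-sensing repressor of the heme oxygenase gene and other genes of the antioxidant response.

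The 0 h library held 15588502 recovered reads, the 2 h library only 7263258 and the 4 h library 32659392. The depth behind the AAV samples is unknown. The cells carried their label's markers: the summed level of 10 macrophage markers was 46562 TPM at 0 h, 26299 TPM at 2 h and 26385 TPM at 4 h of LPS (computed here from reads and gene length), and between 35184 and 38713 TPM in the AAV samples. Gene by gene in the authors' values, 2 of the 10 were at least 2-fold higher and 0 lower at both LPS times. The median log2 differences of the 10 were 0.35 and 0.12. Of the 17854 genes kept, 20.5% were higher and 24.7% lower at 2 h, and 22.2% and 23.6% at 4 h. With library totals 2 of the 10 were higher and 1 lower at 2 h, and 2 were higher and 3 lower at 4 h. The medians of the 10 were then -0.31 and -0.70. Over all genes, library totals gave 2438 higher and 7117 lower at 2 h, and 2335 and 7845 at 4 h. None of 4 B cell markers or 5 T and NK cell markers had more than 3 reads in any LPS library, and none reached 1 TPM in any AAV sample. The 4 endothelial markers summed to 2.33, 3.80 and 23.1 TPM along the LPS course: Kdr and Cdh5 were kept and were both at least 2-fold higher at 4 h (median log2 difference 3.05), and Tek and Emcn had at most 3 reads in each library. The part of the macrophage and endothelial marker levels in the LPS results was not tested. The 9 neutrophil markers summed to between 1238 and 1389 TPM in the LPS libraries. Gene by gene, 5 of the 9 were at least 2-fold higher at 2 h than at 0 h, against 20.5% of all genes kept. At that time 0 were lower, against 24.7%, and the median log2 difference was 1.19. From 2 h to 4 h, 4 were lower, against 15.2%. With library totals 1 of the 9 was higher at 2 h, against 2438 of the 17854 genes. The part of this movement in the LPS values of the lineage factors was not tested. In the AAV samples they summed to 593 and 565 TPM under AAV-GFP, against 1092 and 683 TPM under AAV-SHISA3. Ly6g, a surface marker of neutrophils, had at most 4 reads in an LPS library and stayed under 1 TPM in the AAV samples. It was the only 1 of the 9 under 1 TPM in every AAV sample. In the LPS libraries 0 of the 9 had 3 reads or fewer throughout. These are bulk samples, so fewer cells of a type and less RNA per cell cannot be told apart. Shisa3 itself stood at 7.88 and 10.85 TPM under AAV-GFP, against 12.31 and 17.81 TPM under AAV-SHISA3, and this difference did not pass the test used below (limma adjusted p = 0.138). Whether reads from the vector's transcript count toward these values is not given in the sources used here.

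The first comparison asked how the lineage factors moved while the macrophages responded to LPS. Spi1, Cebpb, Cebpd and Bach1 were higher at 2 h, Cebpa and Klf4 were lower, and by 4 h Bach1 was back near its 0 h level in the authors' values while Klf2 had joined the lower genes. At 2 h, 4 of the 9 factors were at least 2-fold higher than at 0 h, against 20.5% of the 17854 genes kept, and 2 were at least 2-fold lower, against 24.7%. At 4 h, 3 were higher, against 22.2% of all genes, and 2 were lower, against 23.6%. With reads set to equal library totals 4 were higher and 3 lower at 2 h, and 3 were higher and 5 lower at 4 h. Of all 17854 genes kept, 2438 were higher and 7117 lower at 2 h under that scaling, and 2335 and 7845 at 4 h. After centring 4 were higher and 1 lower at 2 h, and 4 were higher and 2 lower at 4 h. Over all genes centring gave 4808 higher and 3454 lower at 2 h, and 5285 and 3036 at 4 h. From 2 h to 4 h, 1 factor was higher, against 17.9% of all genes, and 4 were lower, against 15.2%. The values are the authors' own, in which each library's reads were divided by a single factor, and the calls were made on log2(value + 1). With 1 library per time there was no test, and each fold below has a 95% exact binomial interval that covers counting error only. The median log2 difference of the 9 factors was 0.04 at 2 h and -0.28 at 4 h, and that of all genes kept was -0.05 and -0.04. How the libraries are scaled shifts every gene together: with library totals, all genes had a median of -0.68 after 2 h and of -0.81 after 4 h. Of all genes past 2-fold, 45.4% were higher at 2 h and 48.5% at 4 h in the authors' values, 25.5% and 22.9% with library totals, and 58.2% and 63.5% with median centring of the libraries. From 2 h to 4 h, 54.1% of such genes were higher in the authors' values and 43.9% with library totals.

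**Figure D1:**
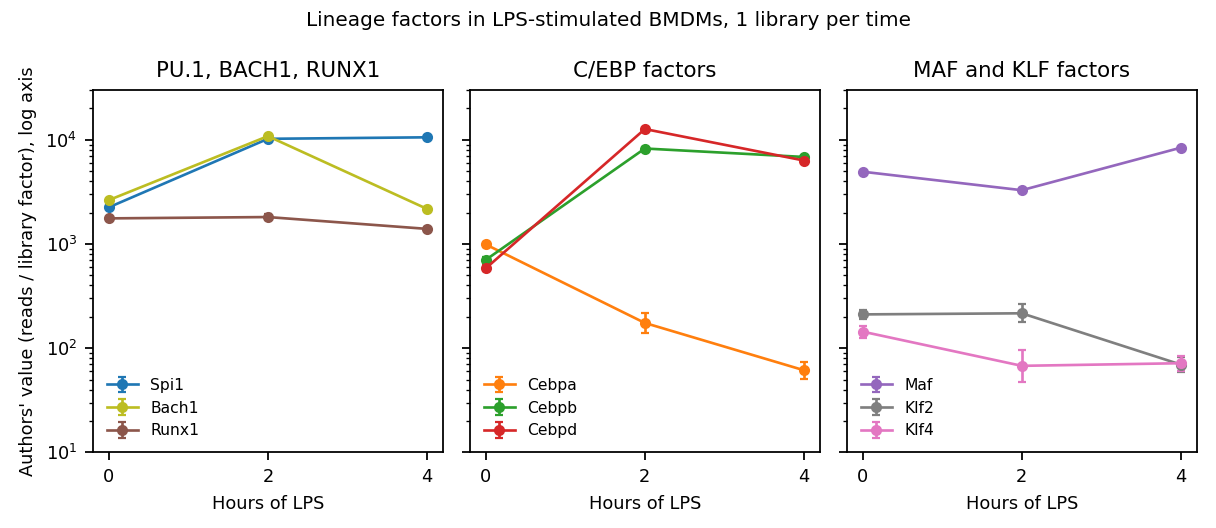
Authors' value (recovered reads divided by the library's factor, log axis) of each lineage factor against hours of LPS; points are single libraries and bars are 95% Wilson intervals for counting error, many of them smaller than the points. Cebpb and Cebpd rise more than 9-fold from 0 h to 4 h while Cebpa falls from 991 to 61.4, and Bach1 peaks at 2 h.

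Spi1 (ENSMUSG00000002111.8) encodes PU.1. It went from a value of 2250 to 10228 and 10573 at 2 h and 4 h, from 3498, 4684 and 19456 reads. Both LPS libraries were far above the untreated one and close to each other. The value at 2 h was 4.55-fold that at 0 h (4.35 to 4.75), and the value at 4 h was 4.70-fold that at 0 h (4.53 to 4.87). With library totals the folds were 2.87 and 2.65, so the rise stayed above 2-fold under each scaling, while the small step from 2 h to 4 h, 0.05 on the log2 scale, turned to -0.11. Runx1 (ENSMUSG00000022952.16), the partner of PU.1 in blood formation, stood at 1762, 1815 and 1397, from 2739, 831 and 2571 reads. Its 3 libraries lay close together. The fold of Runx1 at 2 h was 1.03 (0.952 to 1.11), and that after 4 h was 0.793 (0.751 to 0.837). The log2 difference of Runx1 changed sign with the scaling at both times: at 2 h it was 0.04 in the authors' values and -0.62 with library totals, and at 4 h it was -0.33 in the authors' values, -1.16 with library totals and 0.04 after centring. The ratio of Spi1 to Runx1, which no scaling of the libraries can move, rose from 5.70 per unit of gene length at 0 h to 25.2 at 2 h and 33.8 at 4 h.

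The C/EBP genes parted. Cebpa (ENSMUSG00000034957.10), the gene of the commitment factor C/EBPα, fell from a value of 991 untreated to 175 and then 61.4, from 1540, 80 and 113 reads. Each later library lay below the one before it. At 2 h Cebpa was 5.67-fold lower (4.53 to 7.19), and by 4 h it was 16.1-fold lower (13.3 to 19.7). Its log2 difference at 4 h, -3.99, was the 150th lowest of the 17854 genes. Cebpb (ENSMUSG00000056501.3), whose product binds the promoters of Il6 and other inflammatory genes, went the other way, with values of 704, 8256 and 6849 from 1095, 3781 and 12603 reads. Both LPS libraries were well above the untreated one. Cebpb was 11.7-fold higher at 2 h (10.96 to 12.5) and 9.72-fold higher at 4 h (9.14 to 10.4). Cebpd (ENSMUSG00000071637.5), the acute-phase member, had values of 584, 12696 and 6331 from 908, 5814 and 11650 reads. The 2 h library was the highest and the 4 h library lay between the others. Cebpd was 21.7-fold higher at 2 h (20.3 to 23.3) and 10.8-fold higher at 4 h (10.1 to 11.6). Its log2 difference at 2 h, 4.44, ranked 225 from the top of the 17854 genes. From 2 h to 4 h Cebpd differed by -1.004 on the log2 scale, just past 2-fold, and by -0.98 with TMM factors and -0.95 after centring, just short of it. The rises of Cebpb and Cebpd and the fall of Cebpa were past 2-fold under each of the 4 scalings. The ratio of Cebpb to Cebpa per unit of gene length, free of any scaling, went from 1.25 at 0 h to 82.8 at 2 h and 195 at 4 h. Cebpb overlaps Tmem189 and Cebpd overlaps Spidr on the other strand, and the strand setting of the counting is not given in the sources used here. Before scaling, Tmem189 had 2111, 426 and 2940 reads and Spidr had 456, 131 and 936 reads. Their part in the C/EBP values was not tested.

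The promoter windows of the C/EBP pair that moved in opposite directions are shown for their letters around the start of transcription. They come from RefSeq on GRCm38.p6, run from 250 bases before the start to 50 after it, and are written 5′ to 3′ on the gene's strand. Of the 9 factors, 6 had a window, and Runx1 had 2 of them. Motifs were searched on both strands in all 7 windows and in 32851 mouse windows of the same length, and capitals mark every match: GGGCGG (the GC box of SP and KLF factors, in 35.7% of all windows), CCACCC (the KLF CACCC box, 31.5%), TATAAA (the TATA box, 13.6%), GAGGAA (the core of PU.1 sites, 28.3%), TGANTCA (AP-1, 7.81%), TGACGTCA (CRE, 1.79%), TTGCNNAA (C/EBP, 10.8%), TTCNNNGAA (STAT, 8.30%), and the NF-κB (4.51%), MEF2 (3.19%) and CArG (1.63%) consensus motifs. Where GGGCGG matches overlap, they form 1 run of capitals. Cebpa lies at chr7:35119043-35119342 on the plus strand and Cebpb at chr2:167688665-167688964 on the plus strand.
Cebpa: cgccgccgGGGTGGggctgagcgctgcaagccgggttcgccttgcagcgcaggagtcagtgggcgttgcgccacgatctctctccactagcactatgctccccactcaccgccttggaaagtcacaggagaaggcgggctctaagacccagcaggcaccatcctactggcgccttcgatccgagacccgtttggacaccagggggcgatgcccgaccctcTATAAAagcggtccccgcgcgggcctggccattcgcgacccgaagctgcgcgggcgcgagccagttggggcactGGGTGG
Cebpb: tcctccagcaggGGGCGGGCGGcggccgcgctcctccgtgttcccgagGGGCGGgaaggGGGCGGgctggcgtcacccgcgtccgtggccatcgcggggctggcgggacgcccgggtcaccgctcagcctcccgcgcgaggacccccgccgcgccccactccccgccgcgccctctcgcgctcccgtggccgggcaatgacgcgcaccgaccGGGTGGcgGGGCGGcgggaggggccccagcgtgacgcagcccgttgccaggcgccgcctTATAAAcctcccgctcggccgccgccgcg
The Cebpa window held TATAAA 30 bases before the start and 2 matches to CCACCC, read as GGGTGG on this strand, and no GGGCGG. The Cebpb window held 5 GGGCGG matches, 1 CCACCC match 38 bases before the start, and a TATAAA 21 bases after the annotated start. The Cebpb window was 80.7% G and C and the Cebpa window 67.3%, against a median of 52.7% over all windows. None of the 7 windows matched the NF-κB, AP-1, CRE, C/EBP, STAT or CArG motif in the form searched. A match is only a match of letters.

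Maf (ENSMUSG00000055435.6) went from a value of 4944 down to 3284 and then up to 8412, from 7686, 1504 and 15480 reads. The 2 h library was the lowest and the 4 h library the highest. At 2 h the fold of Maf was 0.664 (0.628 to 0.702), by 4 h it was 1.70 (1.66 to 1.75), and from 2 h to 4 h it rose 2.56-fold (2.43 to 2.70), the only factor past 2-fold upward in that step. Measured from 0 h the log2 difference of Maf at 4 h was 0.77, with library totals it was -0.06 and after centring 1.14, past 2-fold higher, whereas the fall at 2 h and the rise from 2 h to 4 h kept their direction under each of the 4 scalings. With library totals the 2 h difference of Maf was -1.25, past 2-fold lower.

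Bach1 (ENSMUSG00000025612.5), the repressor of heme oxygenase, rose and returned. Its value went from 2639 to 10846 and back to 2174, from 4102, 4967 and 4000 reads. The 2 h library alone stood high. Bach1 was 4.11-fold higher at 2 h (3.94 to 4.29), and from 2 h to 4 h it was 4.99-fold lower (4.79 to 5.20), a log2 difference of -2.32 that was the 349th lowest of 17854 genes. At 4 h its log2 difference from 0 h was -0.28 in the authors' values, -1.10 with library totals and 0.09 after centring. Its ratio to Nfe2l2, the gene of the activator NRF2 that binds many of the same sites, per unit of gene length was 0.526 untreated and then 1.04 and 0.189. The promoter window of Bach1, at chr16:87698704-87699003 on the plus strand of GRCm38.p6, is shown for this transient.
Bach1: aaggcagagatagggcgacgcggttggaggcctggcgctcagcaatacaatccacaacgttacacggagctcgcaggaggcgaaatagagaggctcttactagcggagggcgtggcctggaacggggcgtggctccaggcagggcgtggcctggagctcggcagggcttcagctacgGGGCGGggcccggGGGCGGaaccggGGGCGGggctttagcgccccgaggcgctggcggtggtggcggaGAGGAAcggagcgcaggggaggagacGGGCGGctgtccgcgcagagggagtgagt
It held 4 GGGCGG matches, 1 of them after the start, and a GAGGAA that begins 5 bases before the start.

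The KLF genes had the lowest levels per unit of length of the 9 at 0 h. Klf4 (ENSMUSG00000003032.8) had values of 144, 67.7 and 71.7 from 224, 31 and 132 reads. Both LPS libraries were below the untreated one, and between them the fold was 1.06 (0.712 to 1.62). Klf4 was 2.13-fold lower at 2 h (1.46 to 3.21) and 2.01-fold lower at 4 h (1.61 to 2.51), and at 4 h it fell short of the 2-fold call on log2(value + 1), at -0.996, while TMM factors gave -1.04, library totals -1.81 and a pseudocount of 0.1 gave -1.01, each past 2-fold. After centring, its log2 difference at 2 h was -0.77, also short of 2-fold. Klf2 (ENSMUSG00000055148.7) had values of 211, 216 and 69.6 from 328, 99 and 128 reads. Only the 4 h library was low. The fold of Klf2 was 1.02 at 2 h (0.810 to 1.29), and at 4 h Klf2 was 3.03-fold lower (2.47 to 3.75). At 2 h its log2 difference was 0.03 in the authors' values, -0.62 with library totals and -0.03 with TMM factors, while at 4 h it was past 2-fold lower under each scaling. The promoter window of Klf2, at chr8:72318812-72319111 on the plus strand of GRCm38.p6, is shown because the MEF2 motif, a known element of this promoter, was found in no other of the 7 windows.
Klf2: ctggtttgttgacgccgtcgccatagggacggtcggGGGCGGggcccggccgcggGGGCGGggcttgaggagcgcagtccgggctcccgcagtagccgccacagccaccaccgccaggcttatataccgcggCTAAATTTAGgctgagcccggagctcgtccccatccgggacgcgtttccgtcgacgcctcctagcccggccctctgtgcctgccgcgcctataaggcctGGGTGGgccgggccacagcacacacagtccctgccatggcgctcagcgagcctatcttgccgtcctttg
The MEF2 match began 118 bases before the start, and the window also held 2 GGGCGG matches and 1 CCACCC match.

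**Figure D2:**
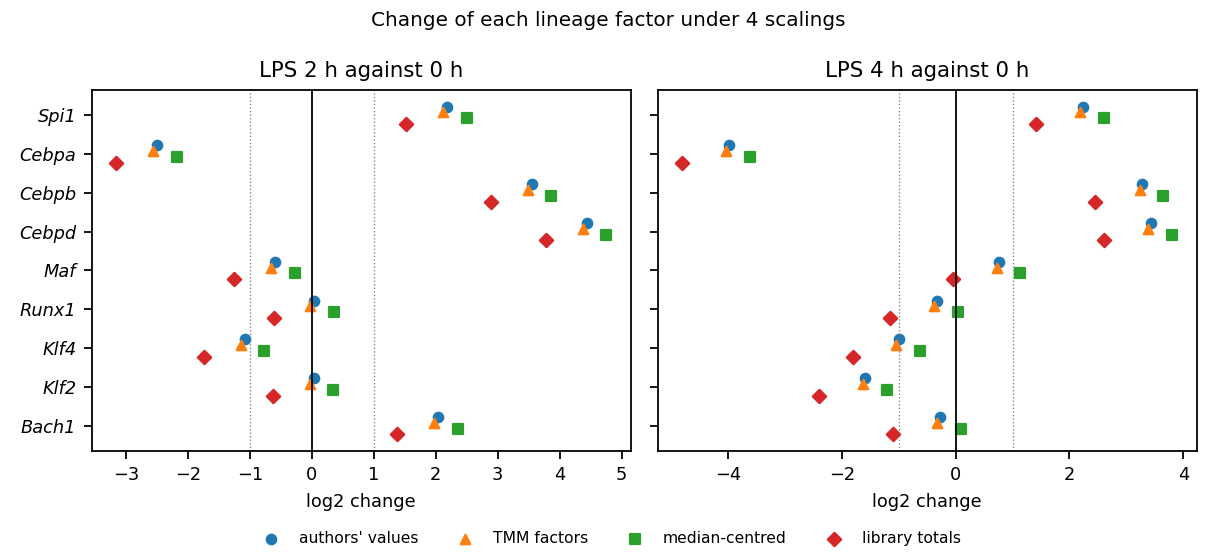
Log2 change of each factor at 2 h (left) and 4 h (right) of LPS against 0 h, under the authors' values, edgeR's TMM factors, median centring and library totals; dotted lines mark 2-fold. Spi1, Cebpb and Cebpd stay past 2-fold higher and Cebpa past 2-fold lower under every scaling, whereas Runx1 at both times, Klf2 at 2 h and Maf and Bach1 at 4 h have points on both sides of 0.

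The order of the factors by level per unit of length changed with LPS. In TPM computed here, Spi1 led at 0 h with 185, followed by Maf at 133, Cebpb at 104, Bach1 at 94.7 and Cebpa at 83.3. Cebpd at 34.6 and Runx1 at 32.5 had overlapping counting intervals (32.4 to 36.9 and 31.3 to 33.7), and Klf2 at 25.3 and Klf4 at 10.5 came last. At 2 h Cebpb led with 662 TPM, ahead of Spi1 at 458, Cebpd at 409 and Bach1 at 212, and Cebpa had dropped to 7.99 TPM. At 4 h the leaders were Cebpb at 599 TPM, Spi1 at 516 and Cebpd at 222, and Cebpa and Klf4 shared the last place at 3.06 and 3.09 TPM. Cebpb thus went from below Spi1 to above it, and Cebpa from the middle of the list to its end.

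The same families were followed through 36 relatives of the 9 factors, of which 35 were kept. At 2 h, 13 relatives were at least 2-fold higher and 7 lower, and at 4 h, 12 were higher and 6 lower. Of all genes kept, 20.5% were higher and 24.7% lower at 2 h, and 22.2% were higher and 23.6% lower at 4 h. The relatives had a median log2 difference of 0.32 at 2 h and 0.68 at 4 h. With library totals the medians were -0.29 and -0.14, with 8 higher and 11 lower at 2 h and 9 higher and 12 lower at 4 h. Over all 17854 genes kept, library totals gave 2438 higher and 7117 lower at 2 h, and 2335 and 7845 at 4 h. These counts of lists under other scalings were chosen after seeing the data. Among them Ets2, an ETS factor, went from 124 at 0 h to 4837 at 2 h and 6279 at 4 h, and Maff, a small MAF protein, from 16.7 to 500.1 and 102.2. Klf10 fell from 726 to 67.7 and 54.9, and Fli1, an ETS factor of blood stem cells, from 1716 to 644 and 322. Of 22 other myeloid regulators, 9 were higher and 4 lower at 2 h, and 10 were higher and 7 lower at 4 h; with library totals it was 7 and 6, and 6 and 8. Ikzf1, the gene of IKAROS, went from 854 to 6409 and 7169, and Lyl1, a progenitor factor, fell from 1187 to 56.8 and 67.4. The nearest pattern to that of a factor was sought among the 48 of these regulators with all 3 log2 differences (2 h, 4 h and AAV-SHISA3), by Euclidean distance on the log2 scale. Klf6 lay nearest to Spi1, at 0.17, with log2 changes of 2.06 and 2.25 beside 2.18 and 2.23. Myc lay nearest to Cebpb, at 0.24, and nearest to Cebpd, at 0.83. Hhex was nearest to Cebpa (1.06), Elf4 to Maf (0.58), Elf2 to Runx1 (0.42), Nfe2 to Klf4 (0.56) and Pparg to Klf2 (0.58). Bach1 had no regulator close to it, with Ets1 nearest at 1.33. The second nearest were Id2 for Spi1, Klf10 for Cebpa, Tfec for Cebpb, Etv3 for Cebpd, Mafg for Maf, Klf16 for Runx1, Cebpz for Klf4, Nfe2 for Klf2 and Klf13 for Bach1.

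Known target genes of each family were counted in the same libraries, for the authors' values against the same shares of all genes. Under other scalings the counts over all genes differed. Of the 17854 genes kept, library totals gave 2438 higher and 7117 lower at 2 h, and 2335 and 7845 at 4 h. Centring gave 4808 higher and 3454 lower at 2 h, and 5285 and 3036 at 4 h. Of 13 C/EBP targets, 10 were at least 2-fold higher at 2 h and 1 was lower, and at 4 h 10 were higher and 2 lower; the count of higher ones was 10 at each time under each of the 4 scalings. Saa3, an acute-phase gene, had 64, 9637 and 190311 reads, and Ptgs2, the prostaglandin synthase gene, had 38, 6518 and 77028. These are reads before scaling, from libraries of 15588502, 7263258 and 32659392 reads. Many of the C/EBP targets also answer to other factors that LPS activates. Of 18 PU.1 targets, 5 were higher and 0 lower at both times. With library totals 3 were higher and 2 lower at 2 h, and 4 were higher and 6 lower at 4 h. After centring 7 were higher at 2 h and 9 at 4 h, and 0 were lower. Among the higher was the scavenger receptor gene Msr1, with log2 differences of 2.66 and 4.20. Of 8 genes listed as MAF targets, 2 were higher at 2 h and 2 at 4 h, with 0 and 1 lower; with library totals 1 was higher at each time, with 0 and 2 lower. Il10, the anti-inflammatory cytokine, had log2 differences of 4.76 and 4.49. Of 5 KLF targets kept, 1 was higher and 2 lower at 2 h, and 2 were higher and 2 lower at 4 h. The lower ones were Thbd, the gene of thrombomodulin, at -3.18 and -3.41, and S1pr1, a sphingosine phosphate receptor, at -2.11 and -3.70. Of 10 BACH1 targets, 2 were higher at 2 h and 3 at 4 h, and 0 were lower. With library totals 2 were higher and 2 lower at 2 h, and 2 were higher and 5 lower at 4 h. After centring 3 BACH1 targets were higher at 2 h and 5 at 4 h, and 0 were lower. Hmox1, the best known of them, had log2 differences of -0.18 at 2 h and 0.90 at 4 h, and of -0.84 and 0.07 with library totals.

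The second comparison asked whether the lineage factors differed between BMDMs given AAV-SHISA3 and those given AAV-GFP. Cebpb was the only one of the 9 that passed the test, Cebpa, Cebpd and Klf2 lay above both controls as well, Runx1 lay below both, and in Spi1, Maf, Klf4 and Bach1 the groups overlapped. Of the 9 factors, 1 was higher at a limma adjusted p under 0.05, against 2.23% of 11218 genes tested, and 0 were lower, against 4.1%. At an unadjusted p under 0.05 there were 5, of which 4 were higher and 1, Runx1, was lower, against 8.21% of all genes tested that were higher and 19.8% that were lower at that level. In 4 factors both AAV-SHISA3 samples stood above both AAV-GFP samples, against 18.2% of all genes, and in 1 factor both stood below, against 41.2%. The median log2 difference of the 9 was 0.05, and that of all genes tested was -0.10. Centring the samples on their medians moved the median of all genes to 0.01, and the split of all genes past the threshold turned from 250 higher and 460 lower (35.2% higher) to 410 higher and 230 lower (64.1% higher). The test was limma's trended test on log2(TPM + 1), and differences below are on that scale. For 1 gene alone, 2 samples against 2 allow no exact two-sided permutation p under 0.333. Over the whole table, 710 genes passed limma's threshold with all 4 samples, 0 without either AAV-GFP sample (2328 and 2028 at an unadjusted p under 0.05), 15 without AAV-SHISA3 replicate 1 and 34 without AAV-SHISA3 replicate 2, and every call given here was thus lost without either control.

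**Figure D3:**
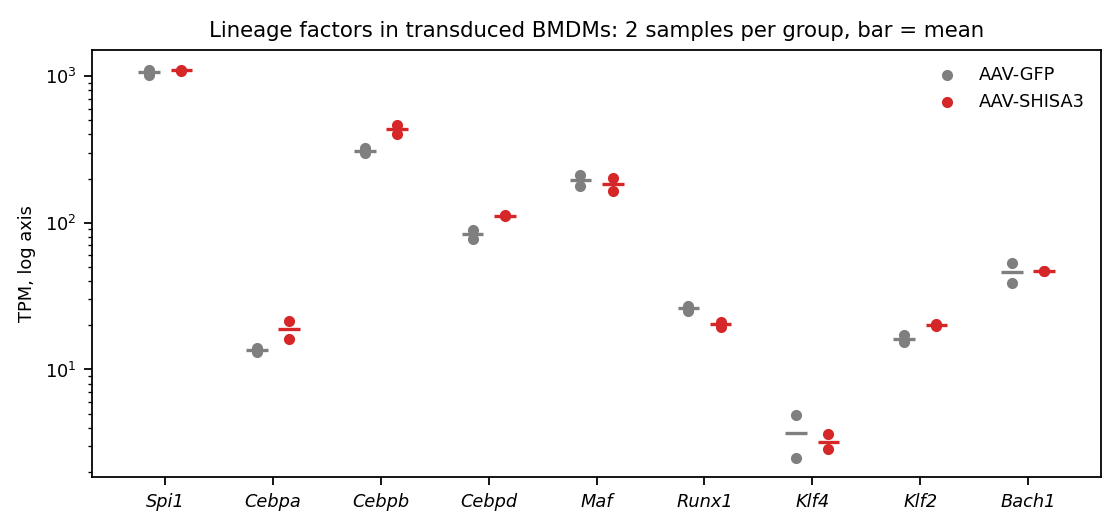
TPM (log axis) of each lineage factor in the 2 AAV-GFP and 2 AAV-SHISA3 samples; points are samples and bars are group means. In Cebpa, Cebpb, Cebpd and Klf2 both AAV-SHISA3 samples lie above both controls, in Runx1 both lie below, and Spi1 is the most abundant and Klf4 the least.

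Cebpb was at 298 and 323 TPM under AAV-GFP, against 405 and 461 TPM under AAV-SHISA3. The groups did not overlap. The means were 310 ± 17.6 and 433 ± 39.5 TPM (SD, n = 2 each), and the log2 difference was 0.48 ± 0.09 (SE, limma adjusted p = 0.0422). This call was lost when any 1 of the 4 samples was left out (limma adjusted p from 0.119 to 0.198, with log2 differences of 0.38 to 0.57), and, with the difference unchanged at 0.48, without the trend (0.0993) or the filter on low values (0.164). Cebpd was at 77.8 and 89.2 TPM under AAV-GFP, against 112 and 111 TPM under AAV-SHISA3. The groups did not overlap. The log2 difference of Cebpd was 0.42 ± 0.09 (SE), with a limma adjusted p of 0.0558. The adjusted p of Cebpd was under 0.05 with centring (0.0322), with the replicate block (0.0412) and with at least 1 TPM in every sample (0.0410), and it was 0.114 without the trend, 0.169 without the filter and 0.169 to 0.198 on leaving out 1 sample. Cebpa was at 14.0 and 13.2 TPM under AAV-GFP, against 16.2 and 21.4 TPM under AAV-SHISA3. Both AAV-SHISA3 samples were above, and they lay farther from each other than the controls did. The log2 difference of Cebpa was 0.43 ± 0.15 (SE, limma adjusted p = 0.138), with a 95% interval of 0.06 to 0.80, and on leaving out 1 sample it ran from 0.24, without AAV-SHISA3 replicate 2, to 0.62. The ratio of Cebpb to Cebpa, 21.2 and 24.5 with AAV-GFP, was 24.9 and 21.5 with AAV-SHISA3, so its groups overlapped. The neutrophil markers moved with these genes: all 8 tested stood higher in both AAV-SHISA3 samples, and Ngp (47.9 and 51.6 against 123.7 and 83.2 TPM) and Camp (13.6 and 13.9 against 40.2 and 24.7 TPM) passed the test, with limma adjusted p of 0.0378 and 0.0422. Their part in the C/EBP values was not tested.

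Runx1 was at 24.8 and 27.3 TPM under AAV-GFP, against 19.5 and 21.1 TPM under AAV-SHISA3. Both AAV-SHISA3 samples were below. The log2 difference was -0.35 ± 0.10 (SE, limma adjusted p = 0.104), with a 95% interval of -0.60 to -0.09. Klf2 was at 17.1 and 15.3 TPM under AAV-GFP, against 20.4 and 19.7 TPM under AAV-SHISA3, and the groups did not overlap. Its log2 difference was 0.29 ± 0.11 (SE, limma adjusted p = 0.148), with a 95% interval of 0.03 to 0.56. Neither gene passed the threshold under any of the 10 alternatives that were run.

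In the other 4 factors the groups overlapped. Spi1 was at 1103 and 1013 TPM under AAV-GFP, against 1106 and 1081 TPM under AAV-SHISA3. Its log2 difference was 0.05, with the narrowest interval of the 9 (95% interval -0.14 to 0.23, limma adjusted p = 0.703). Maf was at 179 and 210 TPM under AAV-GFP, against 164 and 200 TPM under AAV-SHISA3, a log2 difference of -0.10 (-0.41 to 0.22, limma adjusted p = 0.651). Bach1 was at 39.1 and 53.1 TPM under AAV-GFP, against 47.1 and 46.5 TPM under AAV-SHISA3, both of the latter within the range of the controls, with a log2 difference of 0.04 (-0.33 to 0.40, limma adjusted p = 0.892). Klf4, the factor with the lowest level, was at 2.50 and 4.91 TPM under AAV-GFP, against 3.61 and 2.85 TPM under AAV-SHISA3, with a log2 difference of -0.11 (-0.79 to 0.57, limma adjusted p = 0.824).

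**Figure D4:**
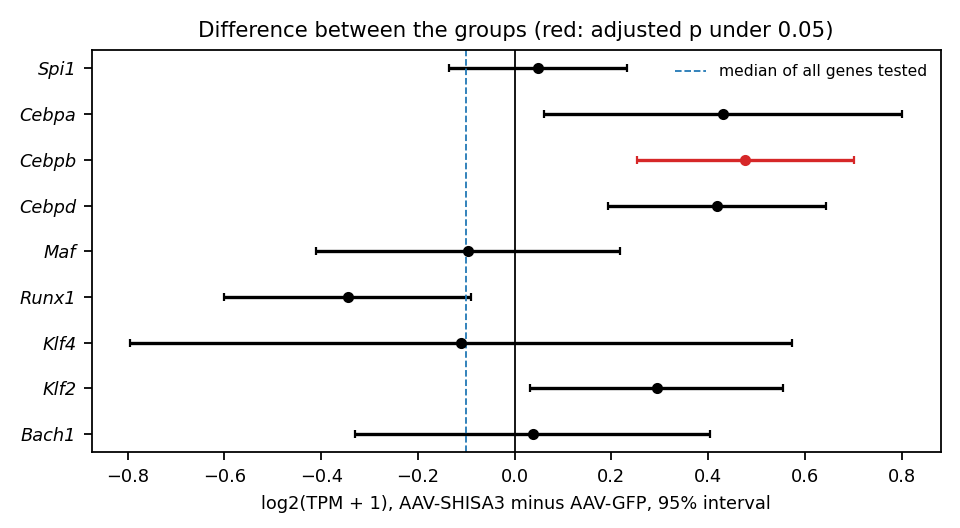
Difference of each factor between the groups, in log2(TPM + 1), AAV-SHISA3 minus AAV-GFP, with limma's 95% interval; the dashed line is the median of all genes tested, -0.10, and red marks an adjusted p under 0.05. Cebpb alone is red, and the intervals of Cebpa, Cebpd, Klf2 and Runx1 also leave out 0.

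By mean TPM with AAV-GFP, Spi1 led at 1058, followed by Cebpb at 310, Maf at 195, Cebpd at 83.5, Bach1 at 46.1, Runx1 at 26.1, Klf2 at 16.2, Cebpa at 13.6 and Klf4 at 3.71, and no 2 neighbours in this order had overlapping samples. TPM is a level per unit of transcript length, so these levels can be set beside each other. With AAV-SHISA3 the order began in the same way, but the samples of Runx1 (19.5 and 21.1 TPM), Klf2 (20.4 and 19.7 TPM) and Cebpa (16.2 and 21.4 TPM) overlapped.

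Among the relatives of the 9 factors, 28 were tested, of which 0 were higher and 4 were lower at a limma adjusted p under 0.05 (1 and 6 at an unadjusted p under 0.05). Of all genes tested, 2.23% were higher and 4.1% lower by the same test. Fli1 was at 26.7 and 30.1 TPM under AAV-GFP, against 17.1 and 18.1 TPM under AAV-SHISA3, a log2 difference of -0.66 (limma adjusted p = 0.0307). Nfe2l1, a relative of the NRF2 gene, differed by -0.51 (0.0307), Klf16 by -0.58 (0.0367) and Ddit3, the stress-induced C/EBP relative CHOP, by -0.64 (0.04997). Of 22 other myeloid regulators, 20 were tested, of which 2 were higher and 2 lower. Id3, an inhibitor of helix-loop-helix factors, was at 22.8 and 30.0 TPM under AAV-GFP, against 83.3 and 86.4 TPM under AAV-SHISA3, a log2 difference of 1.66 (limma adjusted p = 0.0142). Tfec, a macrophage factor of the MITF family, differed by 0.64 (0.0427), Batf3 by -1.07 (0.0203) and Lmo2, a progenitor cofactor, by -0.49 (0.0326). The median log2 difference was -0.08 over the relatives and 0.02 over the other regulators, against -0.10 over all genes. Every one of these 8 calls was lost when any 1 sample was left out.

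Target genes were counted in this comparison too, against the same shares. Of 13 C/EBP targets tested, 2 were higher and 0 lower by limma (6 and 1 at an unadjusted p under 0.05), with a median log2 difference of 0.47. They were Il1b, at 76.3 and 130.2 TPM under AAV-GFP, against 255 and 388 TPM under AAV-SHISA3 (limma adjusted p = 0.0361), and Cd14, the LPS coreceptor, at 735 and 712 against 1199 and 1282 TPM (0.0153). The C/EBP list shares Mpo and Elane with the neutrophil markers, which did not pass. Of 10 BACH1 targets, 2 were higher: Gclm, a subunit of the enzyme that makes the glutathione precursor, at 142 and 147 against 363 and 398 TPM (limma adjusted p = 0.00962), and Txnrd1, the thioredoxin reductase gene, with a log2 difference of 0.72 (0.0315). Hmox1 was at 1708 and 1592 against 2010 and 2178 TPM and did not pass (limma adjusted p = 0.0636). Of 7 listed MAF targets tested, Il10 was higher, by 0.75 (limma adjusted p = 0.0231). Of 18 PU.1 targets 1 was higher, Cd14 again. Of 5 KLF targets tested 2 were lower, Thbd by -0.80 (limma adjusted p = 0.0343) and Cdkn1a, the cell cycle inhibitor gene, by -0.33 (0.0495).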

How the data were processed

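RNA was sequenced from BMDMs at 0 h, 2 h and 4 h of LPS (1 library each) and from BMDMs given AAV-GFP or AAV-SHISA3 (2 samples each). The members, the gene lists and the tests were chosen with earlier results of these data known. The authors' LPS table holds a signal for each gene, namely its reads over a single library factor. The unit was inferred from the values, 100% of which were whole multiples of 1 step (tolerance 0.01), so read counts were recovered. For the AAV samples the authors deposited values of unnamed unit that were read as TPM from their column sums. The submitters' processing notes name the build mm9, and 99.2% of the gene identifiers matched GENCODE M21 without their version. The aligner, the counter and the strand setting are not given in the sources used here.

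LPS genes whose values averaged 1 or more were kept, and a change of 2-fold on log2(value + 1) was called. Levels per length used GENCODE M21 exon lengths. AAV values, as log2(TPM + 1), went into limma (lmFit, eBayes with trend) for genes averaging 1 TPM or more, and Benjamini-Hochberg adjusted p under 0.05 was called. The genes named were the 9 members, up to 4 changed genes per list and direction, and the 2 regulators nearest to each member; Shisa3, Hmox1, Ly6g, Mpo, Elane, Nfe2l2, Tmem189, Spidr, Kdr, Cdh5, Tek and Emcn were named outside this rule, after their values were seen. Alternatives covered scaling, pseudocount, filter, trend, replicate block and leaving out each sample. Tools were R 4.3.3, limma 3.58.1, edgeR 4.0.16 (TMM factors only), Python 3.11.15, scipy 1.17.1, pandas 2.3.3, numpy 2.4.6 and matplotlib 3.10.9.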

Additional observations from a re-analysis of the deposited data

Results flagged for a closer look

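In 4 factors the 2 LPS libraries lay on opposite sides of the 0 h library in the authors' values, and each of the 4 lost this under at least 1 other scaling. The log2 change of Maf was -0.59 at 2 h and 0.77 at 4 h. That of Bach1 was 2.04 at 2 h and -0.28 at 4 h. That of Klf2 was 0.035 at 2 h and -1.59 at 4 h, and that of Runx1 was 0.043 at 2 h and -0.33 at 4 h. With library totals both times were below 0 h for Maf (-1.25 and -0.06), Klf2 (-0.62 and -2.40) and Runx1 (-0.62 and -1.16), and with TMM factors for Runx1 and Klf2. After centring both times were above 0 h for Bach1 (2.35 and 0.09) and Runx1 (0.36 and 0.04). There was 1 library at each time and both changes share the 0 h library, so the difference between the times was not tested. The small changes of Runx1 and Klf2 at 2 h had counting intervals that held no change.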

How the results depend on the processing

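With library totals, the log2 change of Runx1 and of Klf2 at 2 h turned to -0.62 for each, that of Maf at 4 h to -0.057, and those of Spi1 and Klf4 from 2 h to 4 h to -0.11 and -0.077. With TMM factors Runx1 and Klf2 at 2 h were at -0.024 and -0.032, and with centring Runx1 and Bach1 at 4 h were at 0.037 and 0.092. With library totals 8 factors in place of 5 were past 2-fold at 4 h. Of the 17854 genes kept, 2335 were then higher and 7845 lower, in place of 3958 and 4207. In the AAV comparison the number of factors past the threshold, 1, became 0 without the trend or without the filter, 2 with centring or with at least 1 TPM in every sample, and 0 to 0 when 1 sample was left out. With the replicate block it was 2, Cebpb and Cebpd, and over all genes 424 were higher and 851 lower in place of 250 and 460. The replicate numbers were not taken as pairs: there are only 2, and deviations of same-numbered samples correlated at 0.188 across genes. The 4 calls among the relatives became 0 without the trend or filter, 2 with centring, and 0 to 0 on leaving out 1 sample; the 4 among the other regulators became 0 without the trend or filter and 0 to 0 on leaving out 1 sample. Over all genes, limma called 0 without the filter (3529 at an unadjusted p under 0.05) and 5 without the trend. Centring put Maf at 0.019 and Klf4 at 0.0052. Leaving out 1 sample gave log2 differences of -0.013 to 0.11 for Spi1, -0.24 to 0.047 for Maf, -0.49 to 0.27 for Klf4 and -0.18 to 0.25 for Bach1. Leaving out 1 sample leaves 1 in its group, which is assumed to vary like the other group. The cause of these changes was not tested. The 31 reads of Klf4 and 80 reads of Cebpa at 2 h limit the precision of both, and the depth of the AAV samples is unknown.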

Other observations

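The untreated LPS library and the AAV-GFP samples are both BMDMs without LPS, but they come from 2 tables that were normalized separately, so their levels are set side by side with no test. Cebpa was at 83.3 TPM (computed here) in the untreated library and at 14.0 and 13.2 TPM with AAV-GFP. Spi1 was at 185 TPM in the untreated library and at 1103 and 1013 TPM with AAV-GFP, and Cebpb was at 104 TPM against 298 and 323 TPM. The ratio of Cebpb to Cebpa, which the scaling of a library does not move, was 1.25 in the untreated library, 82.8 and 195 after 2 h and 4 h of LPS, and 21.2 and 24.5 with AAV-GFP. The ratio of Spi1 to Runx1 was 5.70 in the untreated library, 25.2 and 33.8 after LPS, and 44.4 and 37.1 with AAV-GFP. In both ratios the AAV-GFP samples thus stood well above the untreated library. The ratio of Cebpd to Cebpa did so too, at 0.415 untreated against 5.55 and 6.76 with AAV-GFP. The other ratios computed were lower with AAV-GFP. That of Cebpd to Cebpb was 0.333 untreated against 0.261 and 0.276. Klf4 to Klf2 gave 0.414 against 0.146 and 0.322, and Bach1 to Nfe2l2 gave 0.526 against 0.313 and 0.396. The gene lengths behind the deposited TPM are not given in the sources used here.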
